A study of Mus musculus with 10 samples.

Results

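The genes described here build and maintain the light-sensing end of the photoreceptor: 43 genes of the outer segment, its disc membranes, the connecting cilium, ciliary transport and the Usher complexes, most of them known as genes of inherited retinal disease. They were chosen by symbol, with no measured value entering the choice, and all 43 were among the 25905 genes of the deposited table. The libraries were made from total RNA of the 5 right and 5 left retinas of mice 61, 64, 65, 66 and 68, wild-type C57BL/6J animals at postnatal day 34. From postnatal day 24 every mouse had a goggle with a −20 dioptre lens, which brings images to focus behind the retina, over one of its eyes for 10 days, while the other eye of the same mouse wore none. Sample names carry the side of the retina and not that of the lens, so the comparisons are right retina against left retina and mouse against mouse, and no retina is called treated. Values are in CPM, the share of a library's counts on a common scale, and tests used log2(CPM + 1), a scale that understates the change of weakly expressed genes.

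The outer segment is a modified primary cilium packed with membrane discs that hold the visual pigment. Its proteins are made in the inner segment and pass through a thin connecting cilium, many of them with the help of intraflagellar transport (IFT) along microtubules, with the BBSome removing membrane proteins that do not belong there and lipid-binding carriers handling the lipid-modified proteins. Discs are renewed throughout life, and loss of function of many of the genes described here ends in photoreceptor degeneration in mice and people.

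The tissue matched its label: 9 rod markers summed to 11295 to 11887 CPM in right retinas and 11146 to 12868 CPM in left retinas, and markers of cones, bipolar, amacrine, horizontal and ganglion cells and Müller glia were present in every library. A CPM unit stood for 89.7 to 113.8 counts, as read from the smallest step between values. Libraries were not free of neighbouring tissue. Of 8 lens markers the sum was 765 CPM in mouse 65, right retina, and 6.95 to 107 CPM in the other 9 retinas, and of 6 skeletal muscle markers the sum was 58.2 CPM in mouse 68, left retina, and 1.55 to 3.48 CPM elsewhere. The label of the right retina of mouse 64 says that corrupted second reads were removed from its raw data. In whole retinas, fewer cells of a type and less RNA per cell cannot be told apart.

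Levels per length of transcript spanned 4 orders of magnitude among the 43 genes, and the structural proteins of the disc and axoneme headed the order. On the scale of CPM per kilobase of annotated exon, Prph2 stood highest at 269 ± 26.0, followed by Rom1 at 225 ± 13.7 (SD, n = 10 libraries). Prph2 is the tetraspanin that bends the rim of every disc, and Rom1 is its partner in that rim. Rp1, which binds the microtubules of the axoneme, came next at 103 ± 5.10, and Unc119, which carries acylated transducin to the outer segment, followed at 76.1 ± 8.97. These 4 levels did not overlap one another between any libraries, apart from Prph2 and Rom1, whose ranges were 230.5 to 313 and 206 to 252. Ranks by exon length and by the longest coding transcript correlated at 0.968 across the 43 genes (Spearman, a description). The largest ratio between the scales was that of Spata7, at rank 31 of 43 by coding transcript and rank 40 by exon length.

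Within the disc and outer segment group of 8 genes, the other 6 lay well below the rim proteins. Cdhr1, a cadherin at the base of the outer segment where new discs form, was at 52.1 ± 3.70 CPM per kilobase, and Prom1, a membrane protein of the growing disc edge, at 34.5 ± 2.24. Reep6, which shapes endoplasmic reticulum in rods, was at 21.9 ± 4.26, the matrix proteoglycans Impg2 and Impg1 at 21.2 ± 0.900 and 19.99 ± 1.33, and Fscn2, an actin-bundling protein of photoreceptors, at 11.53 ± 1.83. Of the other axoneme and ciliary genes, Tulp1, a tubby-like protein needed for transport into the outer segment, had 32.4 ± 1.41, Rp1l1, a relative of Rp1, 28.7 ± 1.39, Tub, the founding tubby protein, 15.5 ± 1.14, and Mak, a kinase that limits the length of the cilium, 11.7 ± 0.666.

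In the connecting cilium 1 scaffold stood far above the other 6 genes. Rpgrip1, which holds Rpgr at the connecting cilium, was at 46.4 ± 1.91 CPM per kilobase, while Rpgr itself, encoded on the X chromosome, was at 2.72 ± 0.186. Cep290, a transition zone protein between microtubules and membrane, and Lca5 (lebercilin) stood at 10.1 ± 0.658 and 9.85 ± 0.950. Iqcb1, Spata7 and Nphp4, further proteins of the transition zone, were lower at 1.52 ± 0.0980, 1.42 ± 0.129 and 1.34 ± 0.155. Per kilobase of the longest coding transcript Spata7 was at 6.99 and Rpgr at 5.18, the reverse of their order by exon length. Among the carriers, the Aipl1 chaperone of the rod and cone phosphodiesterase reached 46.4 ± 1.99, and Pde6d, which carries prenylated proteins, 2.82 ± 0.360. The GTPase Arl3, which releases cargo from Unc119 and Pde6d, was at 13.6 ± 1.03, its activator Arl13b at 6.40 ± 0.329, and Rp2, which switches Arl3 off, at 1.46 ± 0.120.

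The 7 BBSome genes lay in a narrow band, from 5.82 ± 0.494 CPM per kilobase for Bbs1 to 15.04 ± 0.957 for Bbs9, with Bbs7 at 13.7 ± 1.08, Ttc8 at 11.1 ± 0.363, Bbs2 at 9.27 ± 0.824, Bbs4 at 7.59 ± 0.226 and Bbs5 at 6.46 ± 0.447. Most transport genes were lower. Kif3a, a motor subunit of the kinesin that drives IFT outward, had 8.04 ± 0.870, and the IFT particle genes Ift88, Ift172 and Ift140 had 2.95 ± 0.184, 2.64 ± 0.140 and 1.93 ± 0.110. Kif17, the second ciliary kinesin, was near the floor of the tested genes at 0.230 ± 0.0339, which rested on 79 to 130 implied counts per library, and its exons overlap on the same strand those of Sh2d5, at 11.7 CPM. Overlaps with exons of another listed gene also touch Bbs4, Cep290, Ift88, Prom1, Rpgr, Rpgrip1 and Tub, among them Supt16 at 36.0 CPM for Rpgrip1 and Ric3 at 41.3 CPM for Tub, both on the opposite strand. No source used here says whether strand entered the counting.

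The Usher genes spread most widely. Adgrv1 and Pcdh15, very long transcripts for an adhesion receptor and a protocadherin, had 10.1 ± 0.486 and 9.39 ± 0.313 CPM per kilobase, and the scaffold gene Whrn had 3.62 ± 0.176. Myo7a, a myosin that moves cargo in photoreceptors and melanosomes in the pigment epithelium, had 1.79 ± 0.192. Cdh23, the cadherin that joins Pcdh15 in the tip links of hair cells, measured 0.367, 0.348, 0.480, 0.193 and 0.547 CPM in the right retinas, against 0.243, 0.152, 0.462, 0.167 and 0.595 CPM in the left retinas (mice 61, 64, 65, 66 and 68 in that order, here and below). That is 14 to 56 implied counts per library and 0.0210 CPM per kilobase, so that Pcdh15 was far above its hair-cell partner in these retinas. Cdh23 was the single gene of the 43 under the filter of a mean of 1 CPM, and the other 42 were tested.

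**Figure D1:**
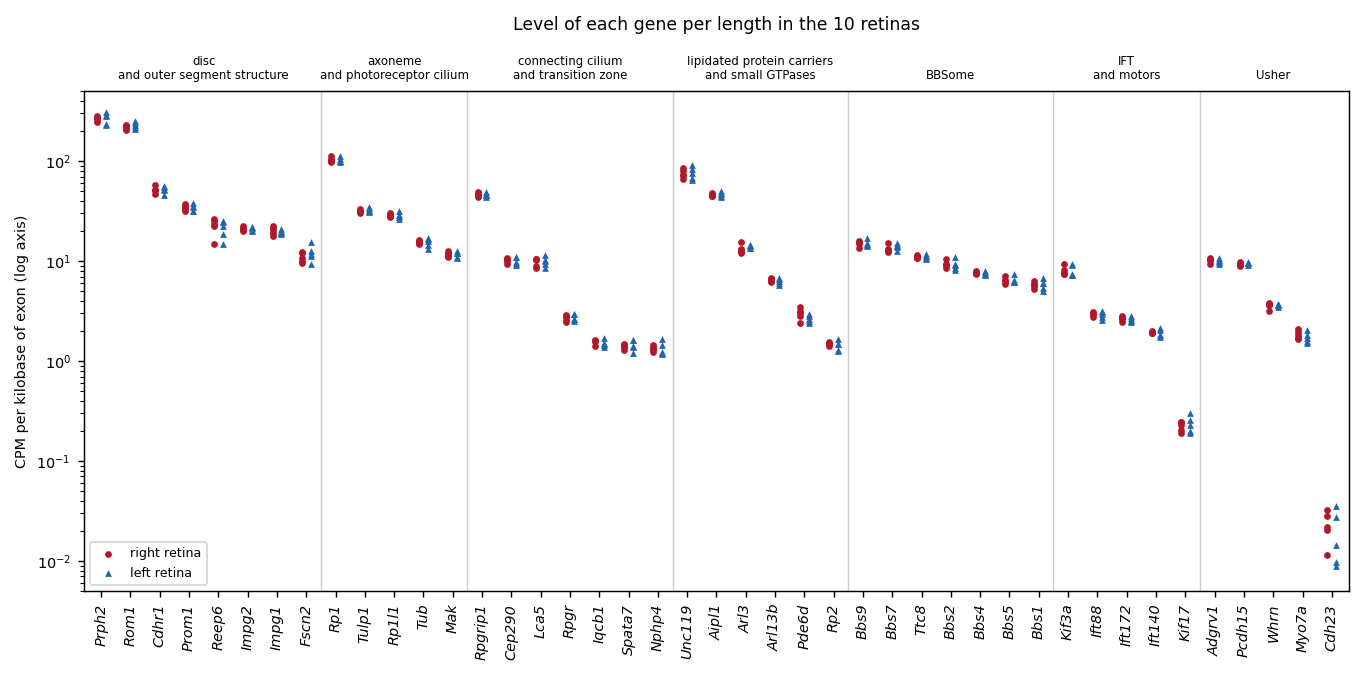
Level of each of the 43 genes in the 5 right retinas (red circles) and 5 left retinas (blue triangles), in CPM per kilobase of exon on a log axis, grouped by role and ordered by level. Prph2, at 269 CPM per kilobase, stands at the top and Cdh23, at 0.0210, at the bottom, and the spread between libraries is small beside the differences between genes.

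The promoters of these genes were searched for 3 short motifs, because photoreceptor genes are classically controlled by CRX and NRL and cilium genes by RFX factors. RefSeq windows on GRCm38.p6, from 250 bases before to 50 bases after a transcript start, were at hand for 40 of the 43 genes (49 windows), with none for Reep6, Rp1 and Rp1l1. The RFX motif GTTGCC, on either strand, was present in the windows of 14 genes, 15 of 49 windows or 30.6%, against 12.5% of all 32851 windows in the table. It was found in 5 of 5 transport genes (Ift88, Ift140, Ift172, Kif3a and Kif17), in 3 of 7 BBSome genes and in 0 of 7 disc and outer segment genes. The CRX core TAATCC was present in 6 genes (Adgrv1, Aipl1, Bbs1, Mak, Rpgrip1 and Unc119), 12.2% of windows against 7.06% of all windows, and the NRL motif TGCTGA in 10 genes, 20.4% against 19.5%. Both were found in 0 of 7 disc and outer segment genes, CRX in 1 of 7 BBSome genes and NRL in 2 of 5 transport genes. The carriers and the connecting cilium, to which Aipl1 and Rpgrip1 belong, also held the RFX motif, in 2 of 6 and 2 of 7 genes. Within a window no 2 matches overlapped. The windows of Lca5 overlap and hold the same RFX match, which is counted in each of them. A match describes these letters and is not a binding site, and a window without one says nothing about the factor.

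Windows of 3 transport genes and of 2 photoreceptor genes are printed 5′ to 3′ in the sense of the gene, with capitals marking the RFX motif in the transport genes and the CRX and NRL motifs in the photoreceptor genes, to show where the letters lie in the role with an RFX match in each of its genes and in genes with both a CRX and an NRL match. On GRCm38.p6, Ift88 is chr14:57423821-57424120, plus strand, Ift172 is chr5:31291065-31291364, minus strand, Kif3a is chr11:53567119-53567418, plus strand, Aipl1 is chr11:72037460-72037759, minus strand and Rpgrip1 is chr14:52110653-52110952, plus strand.
Ift88: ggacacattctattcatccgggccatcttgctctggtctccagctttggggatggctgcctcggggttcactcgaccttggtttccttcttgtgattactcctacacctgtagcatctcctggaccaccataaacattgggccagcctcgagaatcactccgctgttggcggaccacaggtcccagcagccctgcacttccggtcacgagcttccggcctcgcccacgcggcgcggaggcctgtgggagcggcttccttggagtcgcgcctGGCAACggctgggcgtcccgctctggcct
Ift172: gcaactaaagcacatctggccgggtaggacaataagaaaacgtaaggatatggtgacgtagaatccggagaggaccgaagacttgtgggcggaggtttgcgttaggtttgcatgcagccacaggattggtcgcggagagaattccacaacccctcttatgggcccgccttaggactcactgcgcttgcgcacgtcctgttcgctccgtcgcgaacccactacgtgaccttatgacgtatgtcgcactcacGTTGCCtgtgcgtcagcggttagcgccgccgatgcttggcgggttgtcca
Kif3a: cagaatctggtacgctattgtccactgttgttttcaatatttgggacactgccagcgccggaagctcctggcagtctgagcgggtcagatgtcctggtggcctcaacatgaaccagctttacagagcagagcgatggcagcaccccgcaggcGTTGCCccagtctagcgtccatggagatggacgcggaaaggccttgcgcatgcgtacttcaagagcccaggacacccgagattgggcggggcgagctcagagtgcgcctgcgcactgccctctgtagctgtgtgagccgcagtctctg
Aipl1: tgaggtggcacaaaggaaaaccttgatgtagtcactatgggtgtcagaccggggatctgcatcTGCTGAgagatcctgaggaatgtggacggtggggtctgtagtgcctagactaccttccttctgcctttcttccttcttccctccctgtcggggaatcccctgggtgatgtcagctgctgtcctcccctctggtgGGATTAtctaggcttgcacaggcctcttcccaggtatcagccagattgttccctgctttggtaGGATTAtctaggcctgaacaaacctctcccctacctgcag
Rpgrip1: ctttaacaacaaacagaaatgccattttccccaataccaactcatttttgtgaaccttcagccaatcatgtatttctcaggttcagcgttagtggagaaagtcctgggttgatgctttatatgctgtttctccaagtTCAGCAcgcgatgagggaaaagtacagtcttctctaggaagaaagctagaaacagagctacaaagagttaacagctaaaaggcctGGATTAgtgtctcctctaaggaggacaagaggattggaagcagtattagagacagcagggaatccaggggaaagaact
In Ift172 the motif begins at base 1 of the transcript, in Ift88 at base 22 on the reverse strand, and in Kif3a 98 bases before the start. Aipl1 holds 2 copies of the CRX core, 53 bases before the start and at base 11, both on the reverse strand, and an NRL motif 187 bases before it. Rpgrip1 holds a CRX core 28 bases and an NRL motif 113 bases before the start.

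No difference between right and left retinas passed the test in any of the 42 genes, and the intervals bounded each difference closely. Limma called 0 of 42 over all 14210 tested genes (adjusted p = 0.9996 for each), where 0% of all tested genes were called, and 0 of 42 had an unadjusted p under 0.05, against 2.34% of all tested genes. The 95% intervals of the 42 differences lay between −0.25 and 0.29 log2 units of CPM + 1, and 36 of the 42 lay wholly within 0.2 log2 units of 0. The median difference was −0.0037 log2 units, beside 0.0017 over all tested genes. Of the 42, 20 were higher and 22 lower in right retinas, where 51.1% of all tested genes were higher. With libraries scaled to a common sum of listed genes the split was 27 higher and 15 lower, and with median ratio scaling 16 higher and 26 lower. Without mice 65 and 68, whose libraries held lens or muscle RNA, 0 of 42 were called and the split was 21 and 21. In 0 of 42 genes did the 5 right libraries stand apart from the 5 left ones, as they did in 0.289% of all tested genes. With the lens side unknown, a change that follows the lens could not be read from this comparison if the lens sat on different sides in different mice.

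Counted by role, genes higher and lower in right retinas were 3 and 5 for disc and outer segment structure, 3 and 2 for the axoneme and photoreceptor cilium, 4 and 3 for the connecting cilium, 3 and 3 for carriers and small GTPases, 2 and 5 for the BBSome, 3 and 2 for IFT and motors and 2 and 2 for the Usher genes. The role medians ran from −0.02 for the BBSome to 0.01 log2 units for the carriers and for IFT and motors.

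Myo7a (chromosome 7, bases 98051060 to 98119524 of GRCm38) had the lowest p for right against left and was the single one of the 42 genes that was higher in the right retina in 5 of 5 mice, as were 2.78% of all tested genes. Of the 42, 0 were lower in 5 of 5, as were 2.01% of all tested genes. It measured 17.7, 14.6, 16.7, 14.2 and 15.8 CPM in the right retinas, against 17.6, 13.5, 15.5, 12.98 and 14.5 CPM in the left retinas. The sides overlapped widely, with mouse 61 highest on both. The difference was 0.09 log2 units (95% interval −0.00037 to 0.18, SE 0.04). Because the pigment epithelium also uses Myo7a, its 7 markers are given beside it. They summed to 22.3, 16.7, 27.4, 22.1 and 22.2 CPM in the right retinas and 17.4, 27.4, 14.1, 16.3 and 16.2 CPM in the left retinas. The right side was above the left in mice 61, 65, 66 and 68 and below it in mouse 64. Their part in the Myo7a values was not tested.

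Of the carriers and their switch, 2 genes were among the 8 with the lowest p. Pde6d (chromosome 1, bases 86542994 to 86582629) measured 5.19, 6.58, 6.97, 6.21 and 7.62 CPM in the right retinas, against 5.24, 5.68, 5.44, 6.37 and 6.197 CPM in the left retinas. The fitted difference was 0.14 log2 units (95% interval −0.0094 to 0.29, SE 0.07). Its right retina was higher in mice 64, 65 and 68 and slightly lower in mice 61 and 66. Arl3 (chromosome 19, bases 46531096 to 46573198) measured 31.0, 38.6, 30.3, 33.0 and 32.0 CPM in the right retinas, against 33.4, 36.3, 33.5, 34.9 and 36.0 CPM in the left retinas. This gave a difference of −0.08 log2 units (95% interval −0.18 to 0.02, SE 0.04). The right retina was lower for Arl3 in 4 of 5 mice, mouse 64 being the exception.

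In the BBSome, Bbs7 (chromosome 3, bases 36573142 to 36613477), which sits in the core of the complex, measured 66.8, 82.3, 67.4, 71.8 and 69.1 CPM in the right retinas, against 68.4, 78.8, 76.3, 81.4 and 74.2 CPM in the left retinas. Its fitted difference was −0.09 log2 units (95% interval −0.18 to 0.0068, SE 0.04). The right retina of mouse 64 was the highest of all 10, while the right retina was lower in the other 4 mice. For the actin bundler Fscn2 (chromosome 11, bases 120361534 to 120368168) the values were 21.2, 25.7, 20.4, 26.1 and 22.6 CPM in the right retinas, against 23.6, 33.0, 19.7, 24.7 and 26.3 CPM in the left retinas. This gave a difference of −0.12 log2 units (95% interval −0.25 to 0.02, SE 0.06), and the left retina of mouse 64 was the highest of all 10. The disc rim gene Rom1 (chromosome 19, bases 8927391 to 8929356) measured 345, 313, 342, 325 and 338 CPM in the right retinas, against 382, 365, 347, 322 and 329.7 CPM in the left retinas. The fitted difference was −0.07 log2 units (95% interval −0.16 to 0.03, SE 0.04). The sides overlapped in each of these 3 genes.

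Pcdh15 (chromosome 10, bases 73099342 to 74649737) measured 224, 219, 211, 232 and 215 CPM in the right retinas, against 225, 217, 226, 235 and 227 CPM in the left retinas. The fitted difference was −0.04 log2 units (95% interval −0.11 to 0.03, SE 0.03). Tulp1 (chromosome 17, bases 28351515 to 28365222) measured 212, 213, 224, 202 and 213 CPM in the right retinas, against 226, 205, 232, 213 and 217 CPM in the left retinas. Its fitted difference was −0.04 log2 units (95% interval −0.11 to 0.04, SE 0.03). Both varied little, with coefficients of variation over the 10 libraries of 3.34% and 4.34%, where the median over the 42 was 6.59% and over the 8959 genes averaging 5 CPM or more 7.14%.

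**Figure D2:**
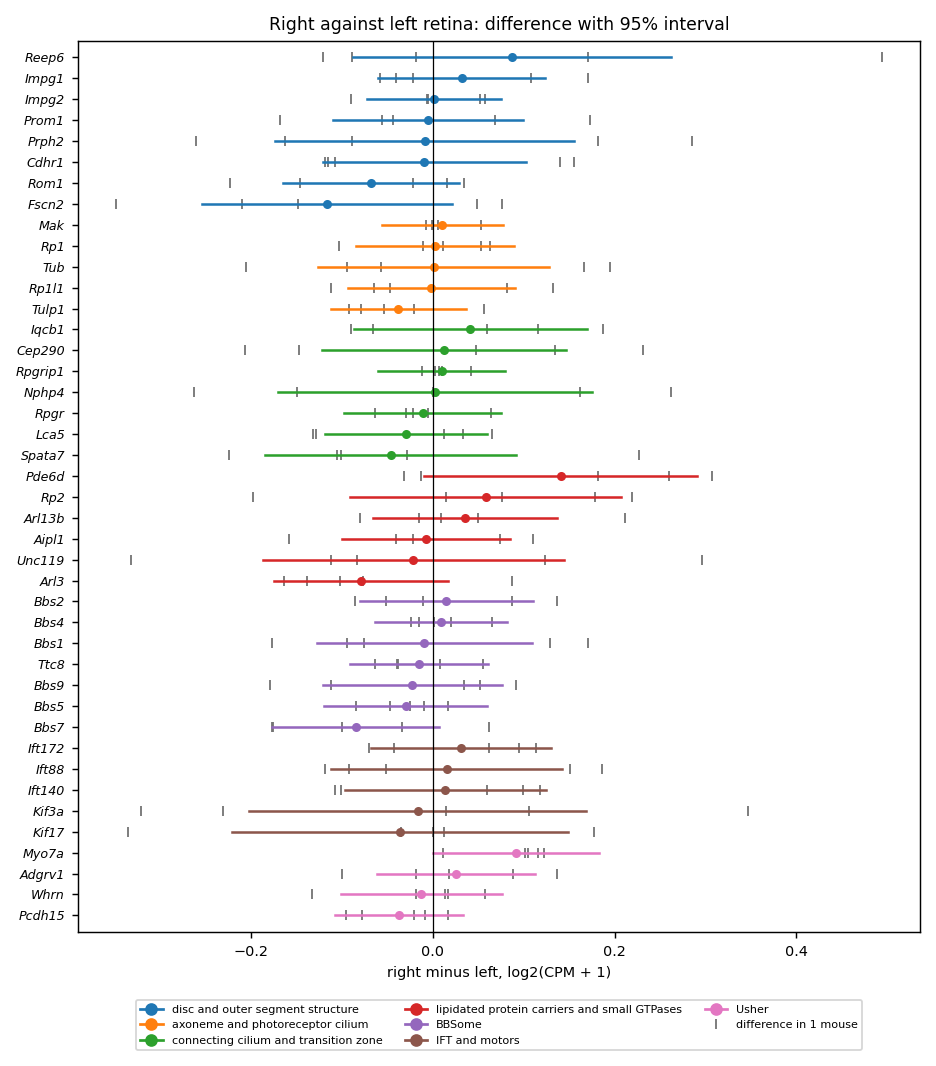
Right minus left difference of the 42 tested genes on the log2(CPM + 1) scale, with the fitted difference (dots), its 95% interval (coloured lines, n = 5 mice) and the difference in each mouse (grey ticks), coloured by role. All 42 intervals span 0, and the ticks of single mice reach −0.35 for Fscn2 and 0.49 for Reep6, both in mouse 64.

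Mouse against mouse, none of the 42 genes passed the test either, and Reep6 had the widest range. Limma's moderated F-test called 0 of 42 genes, where it called 0.57% of all tested genes (81 of 14210), and 9 of 42 (21.4%) had an unadjusted p under 0.05, beside 13.8% of all tested genes. These 9 were Reep6, Myo7a, Lca5, Fscn2, Mak, Bbs2, Bbs5, Bbs7 and Rpgr. The range of the 5 mouse means had a median of 0.18 log2 units over the 42 genes and 0.21 over all tested genes. These medians are of genes of unlike level, since 41 of the 42 averaged 5 CPM or more and 8959 of the 14210 did.

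Reep6 (chromosome 10, bases 80329953 to 80336441) measured 37.0, 66.7, 59.4, 56.1 and 63.4 CPM in the right retinas, against 37.5, 47.1, 63.3, 61.1 and 56.2 CPM in the left retinas. Both retinas of mouse 61 lay below all 8 others, the left retina of mouse 64 was next lowest, and the mouse means ranged over 0.70 log2 units (adjusted p = 0.123, limma). Its coefficient of variation, 19.5%, was the largest of the 42. Without mouse 64 the gene passed (adjusted p = 0.00543), and without mouse 61 the range fell to 0.13 log2 units (adjusted p = 0.969). The summed CPM of the mitochondrially encoded genes moved with Reep6. It was 4033, 5337, 4699, 4544 and 5154 CPM in the right retinas and 3748, 4228, 5182, 5207 and 4559 CPM in the left retinas. The sum was lowest in the 3 libraries in which Reep6 was lowest and highest in the right retina of mouse 64, where Reep6 was highest. The part of that shift in the Reep6 values was not tested.

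Mouse 61 also stood at one end for several ciliary genes. Bbs2 (chromosome 8, bases 94067954 to 94098928) measured 34.7, 30.6, 30.0, 30.3 and 28.5 CPM in the right retinas, against 36.0, 30.9, 27.2, 28.4 and 30.3 CPM in the left retinas. Mouse 61 was highest on both sides (range 0.30 log2 units, adjusted p = 0.238), and without it the range was 0.10 log2 units (adjusted p = 0.940). Lca5 (chromosome 9, bases 83390293 to 83441127) measured 56.2, 66.8, 54.4, 65.7 and 63.96 CPM in the right retinas, against 53.7, 65.3, 59.5, 72.1 and 63.4 CPM in the left retinas. Mice 61 and 65 had lower means than the other 3 (range 0.32, adjusted p = 0.165). Myo7a had a range of 0.36 log2 units with mouse 61 highest (adjusted p = 0.156), and 0.23 without that mouse (adjusted p = 0.723).

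Mak (chromosome 13, bases 41025008 to 41079706) had the closest fellow eyes of the 42 genes. It measured 85.2, 96.2, 83.8, 90.6 and 91.2 CPM in the right retinas, against 82.1, 95.8, 83.8, 91.1 and 91.3 CPM in the left retinas. The mean size of the difference between the eyes of a mouse was 0.014 log2 units. Mice 61 and 65 lay below the other 3 (range 0.20, adjusted p = 0.235). Fscn2 had a range of 0.52 log2 units, with mouse 64 highest and mouse 65 lowest (adjusted p = 0.2002). Without mouse 64 the range of Fscn2 was 0.33 and that of Mak 0.12. After a correction for GC content chosen after seeing the data, Fscn2 and Lca5 passed (adjusted p = 0.0223 and 0.0457), and the other 40 genes did not.

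**Figure D3:**
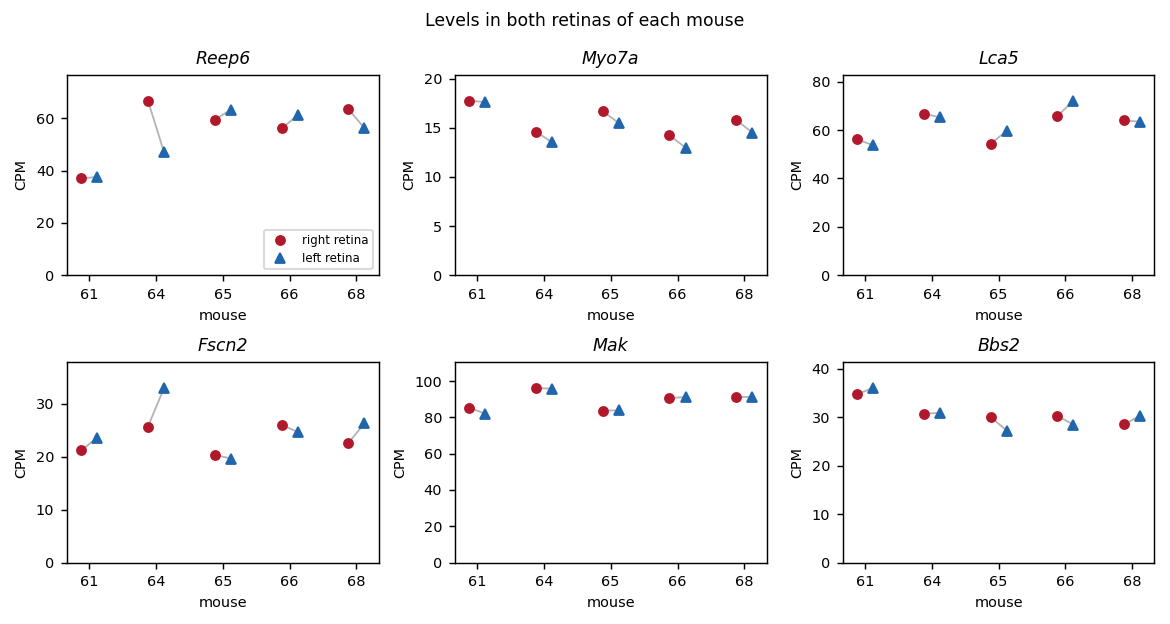
CPM of the 6 genes with the lowest p between mice, in the right retina (red circles) and left retina (blue triangles) of each mouse, joined by a grey line, on axes that start at 0. Both retinas of mouse 61 are lowest for Reep6, at 37.0 CPM on the right and 37.5 CPM on the left.

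No gene passed by side, but fellow eyes differed in a shared pattern. The differences of single mice, right minus left, were largest for Kif3a, Prph2 and Unc119, whose mean size was 0.20, 0.20 and 0.19 log2 units (these and Cep290 are described here because of their values). Prph2 measured 839, 732, 805, 843 and 795 CPM in the right retinas, against 939, 877, 709, 692 and 845 CPM in the left retinas. By mouse the differences were −0.16, −0.26, 0.18, 0.28 and −0.09 log2 units. The right retina was lower in mice 61, 64 and 68 and higher in mice 65 and 66, and the fitted difference over the 5 mice was −0.0091 log2 units (95% interval −0.17 to 0.16, SE 0.07).

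Unc119 measured 208, 163, 179, 195 and 177 CPM in the right retinas, against 225, 206, 164, 158 and 187 CPM in the left retinas. Its differences by mouse were −0.11, −0.33, 0.12, 0.30 and −0.08 log2 units, with the same signs as Prph2 in 5 of 5 mice. Its fitted difference was −0.02 log2 units (95% interval −0.19 to 0.14, SE 0.07). Rp1, the most abundant axoneme gene, measured 1382, 1290.2, 1214, 1239 and 1249 CPM in the right retinas, against 1372, 1244, 1305, 1249 and 1196 CPM in the left retinas. Its fitted difference was 0.0023 log2 units (95% interval −0.09 to 0.09, SE 0.04). Kif3a took the opposite course. It measured 26.5, 33.7, 26.5, 27.5 and 29.0 CPM in the right retinas, against 26.2, 26.3, 33.4, 32.5 and 26.8 CPM in the left retinas. By mouse the differences were 0.01, 0.35, −0.32, −0.23 and 0.11 log2 units. Cep290 followed Kif3a, at 119.9, 126, 109, 116 and 119 CPM in the right retinas, against 109, 107, 126, 128 and 115 CPM in the left retinas. Its differences by mouse were 0.13, 0.23, −0.21, −0.15 and 0.05 log2 units.

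Across the 42 genes the differences of mouse 64 and mouse 66 were nearly mirror images, with Pearson's r of −0.76 (−0.44 over all tested genes), and 34 of the 42 had opposite signs in these mice. The differences of mice 65 and 66 ran together, with r of 0.75 (0.40 over all tested genes). Mouse 68 ran with mouse 64 (r of 0.54, and 0.18 over all tested genes), as did mouse 61 (0.49 and 0.32). These correlations are across genes, which share their libraries, and are given as a description. The split of mice used next was chosen after seeing these differences and leaves out mouse 68. One sign in both mouse 61 and mouse 64 and the other sign in both mouse 65 and mouse 66 was seen in 21 of the 42 genes (50%), beside 35.2% of all tested genes. Of the 21, 13 were lower on the right in mice 61 and 64, namely Prph2, Cdhr1, Prom1, Fscn2, Rp1l1, Tub, Nphp4, Unc119, Aipl1, Bbs1, Bbs2, Bbs9 and Ttc8. The other 8 were higher there, namely Rp1, Mak, Cep290, Lca5, Iqcb1, Arl13b, Ift88 and Kif3a. In several of these genes 1 or more of the differences was close to 0. Over all tested genes the median difference was −0.039, −0.022, 0.044, 0.037 and −0.0088 log2 units in mice 61, 64, 65, 66 and 68. These are the signs of Prph2 and Unc119 in each mouse. The part of this shift across all genes in the pattern was not tested. The rod marker sum was 11295, 11659, 11613, 11684 and 11887 CPM in the right retinas. In the left retinas it was 12149, 12868, 11240, 11146 and 11484 CPM. Its right side was lower in mice 61 and 64 and higher in the others. The cone, amacrine and Müller glia sums had the same signs, and the ganglion cell sum the opposite ones. Bipolar and horizontal cell sums took neither course. The part of these sums in the differences was not tested.

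The base composition of the transcripts moved with this pattern. The GC content of the longest annotated transcript had a median of 52.4% (range 44.6 to 59.7%) in the 13 genes and 42.1% (range 38.7 to 47.6%) in the 8. Over the 42 genes, the rank correlation of GC content with the right minus left difference was −0.67, −0.43, 0.61, 0.45 and −0.08 in mice 61, 64, 65, 66 and 68, and over the 14032 tested genes with a known transcript it was −0.40, −0.32, 0.27, 0.25 and −0.21. With each library corrected for GC content, an alternative chosen after seeing the data, the median mean size of a gene's difference between fellow eyes was 0.076 log2 units, against 0.093 without it, and the r of mice 64 and 66 was −0.71. The r of mice 65 and 66 was 0.66 with the correction, that of mice 61 and 65 was −0.19, against −0.48 without it, and that of mice 61 and 66 was −0.24, against −0.45. The correction takes each library's trend with GC content off its values, so it shrinks differences that follow GC content by construction. The part of GC content in these differences was not tested, nor was that of the lens, whose side the labels do not give. The mean size of a gene's difference between fellow eyes was smaller in 25 of the 42 genes. It was 0.10 for Unc119, 0.12 for Prph2 and 0.12 for Cep290 after the correction, against 0.19, 0.20 and 0.15 without it. It was not smaller for Kif3a, at 0.23 against 0.20, or for Reep6, which, at 62.0% GC, had 0.27 against 0.18. The mitochondrially encoded sum, given with Reep6, had its higher side on the right in mice 61, 64 and 68 and on the left in mice 65 and 66, the signs opposite to those of Prph2 and Unc119, and its part was not tested.

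**Figure D4:**
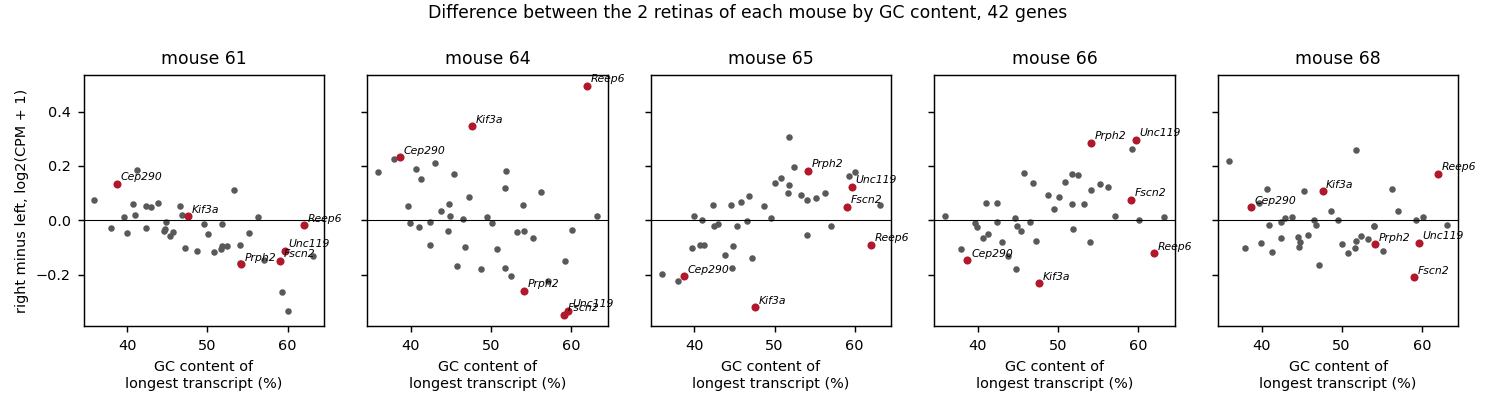
Right minus left difference of each of the 42 genes, in log2(CPM + 1), against the GC content of its longest transcript in percent, with a panel for each mouse and 6 genes named in red. The points slope down in mice 61 and 64 (rank correlation −0.67 and −0.43) and up in mice 65 and 66 (0.61 and 0.45).

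Other genes of the same machinery gave no call between the sides either. Of 80 other genes of the cilium, IFT, BBS, transition zone, Usher complexes and outer segment that were in the table, 75 were tested. Limma called 0 of them, as it did 0% of all tested genes, and 1 had an unadjusted p under 0.05, beside 2.34% of all tested genes. In all, 31 were higher and 44 lower in right retinas, where 51.1% of all tested genes were higher. Their median was −0.0082 log2 units, beside 0.0017 over all tested genes. The split of these genes was not counted under the other scalings, which moved that of the 42 genes in either direction. The gene with an unadjusted p under 0.05 was Pcare, an actin-binding regulator of new discs. It measured 135, 151, 128, 144 and 138 CPM in the right retinas, against 141, 158, 134, 154 and 155 CPM in the left retinas. It was lower in the right retina in 5 of 5 mice, as were 2.01% of all tested genes. Its fitted difference was −0.09 log2 units (95% interval −0.16 to −0.02, SE 0.03), with an adjusted p of 0.9996 in limma. Topors, a ubiquitin ligase found at the cilium base, had 16.7 ± 0.609 CPM in right retinas and 15.2 ± 2.27 CPM in left retinas (SD, n = 5 each), a difference of 0.14 log2 units (SE 0.08). Pdzd7, a scaffold related to Whrn, had 0.929 ± 0.188 CPM in right retinas and 1.14 ± 0.111 CPM in left retinas, a difference of −0.15 log2 units (SE 0.08).

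Between mice, 11 of the 75 had an unadjusted p under 0.05 in limma, beside 13.8% of all tested genes. After adjustment 1 of the 75 passed, where 0.57% of all tested genes did. Samd7, a photoreceptor repressor of other cells' genes, measured 51.9, 54.8, 49.6, 43.0 and 58.2 CPM in the right retinas, against 47.9, 55.2, 47.9, 41.7 and 56.4 CPM in the left retinas. It was highest in mice 68 and 64 and lowest in mouse 66 in both eyes (range 0.43 log2 units, adjusted p = 0.0221, limma). The call was lost without mouse 61, 66 or 68, with adjusted p of 0.0682, 0.215 and 0.166, and without mice 65 and 68 together, with 0.162. Bbs12, a chaperonin-like protein that assembles the BBSome, had a range of 0.45 (adjusted p = 0.140) and Crb1, a polarity protein of the outer limiting membrane, a range of 0.36 (adjusted p = 0.205), both with mouse 61 highest. Without mouse 61 these ranges were 0.23 and 0.15 (adjusted p = 0.797 and 0.849).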

How the data were processed

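Total RNA of 10 mouse retinas was made into strand-specific, ribosomal-RNA-depleted libraries, per the labels. The deposited values are CPM with 0.0001 added to each, a unit read from the values: most are whole multiples of 1 step per library (86.9% to 87.8% of values between 20 and 1000 steps, within a tolerance of 0.1), too few to recover counts, so no count test was run. Per the submitters' processing notes, STAR, Partek and the build GRCm38 were used. For tool versions, the counting rule and the gene filter, no source used here says what was done. Listed genes held 29690000 to 37260000 implied counts per library.

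Genes averaging 1 CPM or more over the 10 libraries, 14210 in all, were fitted with limma 3.58.1 in R 4.3.3 on log2(CPM + 1), with side and mouse as terms, trended variances, two-sided tests and Benjamini-Hochberg adjustment over all of them (threshold 0.05). Fellow eyes come from 1 animal. Their deviations from the side means correlated at 0.61, 0.14, 0.17, 0.17 and 0.31 in mice 61, 64, 65, 66 and 68. The fit was also run on simulated data, with independent noise in each library apart from set side or mouse effects in some genes. Those data lack the correlation of fellow eyes and the trend with GC content, so no conclusion is drawn from them. Exon lengths, coordinates and transcripts are from GENCODE M21. The genes, lists and tests were chosen with earlier results of these data known. Protein sequences were not analysed here. Named are the 8 genes of lowest p by side, 6 between mice, 4 of highest level per length, and 3 per test of the wider list. Alternatives were the pseudocount, filter, scaling, block, each mouse left out and, added later, GC content.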

Additional observations from a re-analysis of the deposited data

Results flagged for a closer look

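In 86 groups of 5 libraries (43 genes on 2 sides), 3 held a library whose gap to the nearest other exceeded 0.71 of the whole range, where chance gives about 1 in 20. For Iqcb1, mouse 66 had 7.54 CPM on the right, below 8.46 to 8.67 CPM in the other right retinas. For Bbs5, mouse 61 had 17.99 CPM on the left, above 15.2 to 15.9 CPM in the other left retinas. For Whrn, mouse 61 had 23.4 CPM on the right, below 26.7 to 27.9 CPM in the other right retinas.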

How the results depend on the processing

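Right against left, limma called 0 genes and 0 of the 42 in each alternative, including the fit with no replicate block (0 genes, with 188 at an unadjusted p under 0.05), and the block changed no call. Of the 42, 0 to 3 had an unadjusted p under 0.05 in any setting. The 8 genes named for their side difference kept its direction in the 14 alternatives, with ranges from 0.05 to 0.18 for Pde6d, 0.07 to 0.11 for Myo7a, −0.16 to −0.06 for Fscn2, −0.12 to −0.03 for Arl3 and Rom1, −0.12 to −0.05 for Bbs7, −0.06 to −0.02 for Tulp1 and −0.05 to −0.0040 for Pcdh15, the last without mice 65 and 68. Between mice, 81 genes passed as reported, 23 to 88 when a mouse was left out, 41 without mice 65 and 68 and 144 after correction for GC content. Of the 42, 0 passed as reported, 0 to 1 when a mouse was left out (Reep6 without mouse 64) and 2 after correction for GC content. The cause was not tested. Depth limits Kif17 and Cdh23, which rested on 79 to 130 and 14 to 56 implied counts per library.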
